A study of Drosophila melanogaster with 12 samples.

Results

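Transcript levels of whole Drosophila melanogaster larvae lacking REPTOR were compared with those of control larvae, both on food that contained ethanol and no drug. The comparison used 6 of the 12 arrays of the series, chosen by title: 3 of knockout larvae and 3 of control larvae, with a further 3 per genotype from larvae that had eaten 200 µM rapamycin. Knockout larvae are labelled as carrying a REPTOR knockout, and how it was made is not given in the sources used here. Control larvae are labelled w1118, so each difference below joins the loss of REPTOR with any other difference in genetic background between the stocks, and the design cannot tell these apart. All larvae are labelled female, were taken 48 h before wandering and had eaten the test food for 6 h. From each sample 0.5 µg of total RNA was labelled with Cy3 and hybridised to a one-colour Agilent array.

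REPTOR is a bZIP transcription factor downstream of TORC1, the nutrient-sensing kinase complex that drives growth in fed animals. Active TORC1 keeps REPTOR phosphorylated and in the cytoplasm. When TORC1 is inhibited, as by rapamycin, REPTOR enters the nucleus and, with its partner REPTOR-BP, activates genes that TORC1 otherwise holds down. Larvae on ethanol food are therefore the state in which REPTOR is mostly held inactive, and the comparison asks what its loss changes there.

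Most of the array could not be named. The 32162 probes point to 25857 target sequences, of which 18765 genes or targets were bright enough to be tested and 277 of those have a gene symbol here. No probe matched REPTOR, REPTOR-BP, Thor, InR or unk, so they were not analysed here, and the knockout was not checked through its own transcript. Levels are log2 signals relative to the 75th percentile of the array, so a level above 0 belongs to the brighter spots of an array, and a difference of 1 between groups is 2-fold. Each array had 72.5% to 82.7% of its spots well above background and 0 saturated, and precision is limited by the number of arrays. Control ethanol arrays all lay on slide 1, whereas knockout ethanol arrays 1 and 2 lay on slide 2 and array 3 on slide 3. Slide and genotype can therefore be separated only through the rapamycin arrays. The larval cuticle protein gene Cpr60D was among the bright targets on all 6 arrays, at 6.54, 6.26 and 6.47 in knockout larvae and 6.54, 6.19 and 6.30 in control larvae. The male-specific RNA lncRNA:roX2 was not well above background on any of these 6 arrays of larvae labelled female. It was well above background on all 3 knockout rapamycin arrays and on 1 of the 3 control rapamycin arrays. The 3 rapamycin arrays where its level was over -4 are called raised below. Knockout rapamycin array 3, at -5.83, is not among them.

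Fed knockout larvae differed from control larvae by many small differences and a few very large ones. Of the 18765 tested, 1200 (6.39%) passed limma's test at an adjusted p of 0.05, with 546 (2.91%) higher and 654 (3.49%) lower in knockout than in control larvae. The median difference was 0.58 among those higher and -0.56 among those lower, and -0.0144 over everything tested. Only 251 (1.34%) differed by 2-fold or more, 136 of them higher and 115 lower. At least 8-fold differences were found for 23, and at least 16-fold ones for 14. Arrays of the 2 genotypes were free of overlap for 5699 (30.4%). The spread between replicate arrays had a median SD, over everything tested, of 0.143 in knockout and 0.125 in control larvae.

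These counts moved strongly with single arrays and with the slides. The share that passed, 6.39% with all arrays, was 0.719% without control array 2 and 0.57% without control array 3. It was 2.23% without knockout array 2 and 0.901% without knockout array 3, and 13.7% without control array 1. Once slide entered the model as a block, the calls fell to 10, and the 1200 include 5 of those 10. The sign was kept for 1199 of the 1200. That fit reuses ethanol arrays by which the 1200 were chosen, so the kept signs cannot separate genotype from slide. The 6 ethanol arrays fitted alone gave 158, and a fit without the 3 rapamycin arrays with raised lncRNA:roX2 gave 451, so the 12-array count also leans on the spread of rapamycin arrays.

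**Figure D1:**
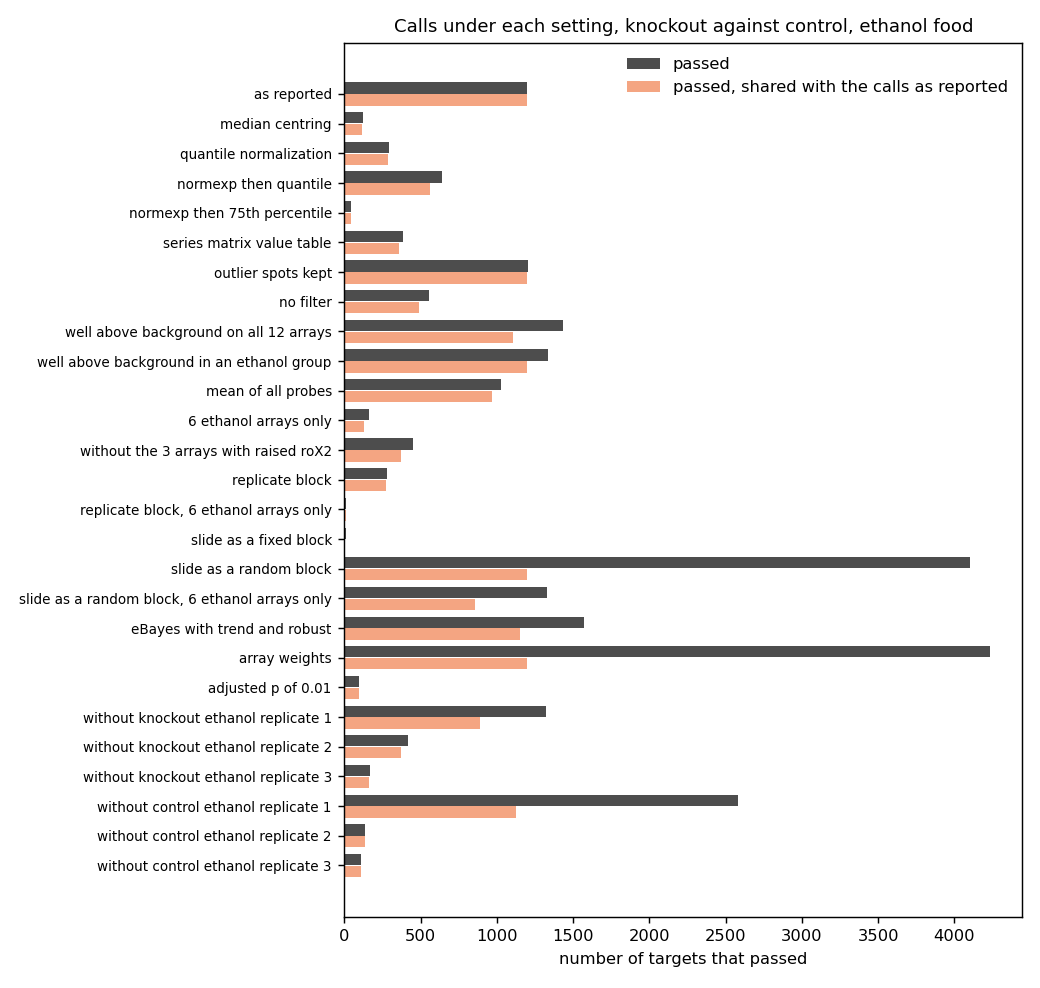
Number of targets that passed in knockout against control larvae on ethanol food (x axis, count) under each processing setting (y axis). Dark bars give the count and light bars those shared, in the same direction, with the 1200 reported; with slide as a fixed block 10 passed and with array weights 4235.

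Of the 277 genes with a symbol, 23 passed, a share of 8.3% that is close to the 6.39% of everything tested. They comprised 7 that were higher and 16 that were lower in knockout larvae. A target is a single transcript, clone or expressed sequence tag of its gene, and 22 of the 23 rest on 1 probe.

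The genes higher in knockout larvae include a cuticle protein gene, an inhibitor of growth factor signalling and a spliceosomal RNA. Acp65Aa, which encodes a chitin-binding protein of the adult cuticle, had levels of -0.93, -1.30 and -0.78 on the knockout arrays and -1.63, -2.53 and -2.93 on the control arrays. The groups did not overlap, but control array 1 came within 0.33 of the lowest knockout array. The difference was 1.36 ± 0.32 (log2, SE, n = 3 arrays per group, limma adjusted p = 0.0416), or 2.57-fold. This was the highest value of any gene with a symbol that passed. In whole-larva RNA, fewer cells of a type and less RNA per cell cannot be told apart. The gene kept its call in 1 of the 6 fits that left out an array, the one without control array 1 (adjusted p = 0.0075). It no longer passed without knockout array 1 (adjusted p = 0.0706), 2 (0.0698) or 3 (0.132), or without control array 2 (0.153) or 3 (0.138).

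Of the other genes matched in the cuticle and chitin list none passed. Cpr60D differed by 0.08 ± 0.10, Cpr49Ag by -0.13 ± 0.13, obst-B, which encodes a chitin-binding protein, by 0.19 ± 0.09, and the chitin deacetylase gene verm by 0.17 ± 0.17 (log2, SE). At an unadjusted p of 0.05 the count for these 5 measured members, Acp65Aa included, was likewise 1. Over everything tested, 4978 of 18765 were under that p.

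kek1 encodes a transmembrane protein that binds and inhibits the EGF receptor. Its levels were -0.10, -0.23 and 0.17 in knockout larvae, against -0.49, -0.91 and -0.91 in control larvae. Every knockout array lay above every control array, and the difference was 0.71 ± 0.14 (SE, adjusted p = 0.0272). No other gene of the EGF receptor signalling list could be matched to a target.

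The small nuclear RNA snRNA:U12 belongs to the minor spliceosome, which removes a rare class of introns. It stood at -2.97, -3.23 and -2.96 in knockout larvae and at -3.56, -3.76 and -3.98 in control larvae, again without overlap. The difference was 0.72 ± 0.11 (SE, adjusted p = 0.0124). snRNA:U11, its partner in intron recognition, had 0.92 ± 0.27 and did not pass (adjusted p = 0.069), and it was well above background on all 3 knockout arrays but on 2 of the 3 control arrays. Both signs turned, to -0.20 for snRNA:U12 and -0.66 for snRNA:U11, with a normexp background correction before the percentile scaling, a setting that shifted the median of all differences to -0.29. Of the 5 snRNAs measured, the 3 of the major spliceosome lay closer to 0, at 0.00 for snRNA:U1:21D, 0.13 for a U2 gene and 0.21 for snRNA:U1:82Eb, and did not pass.

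**Figure D2:**
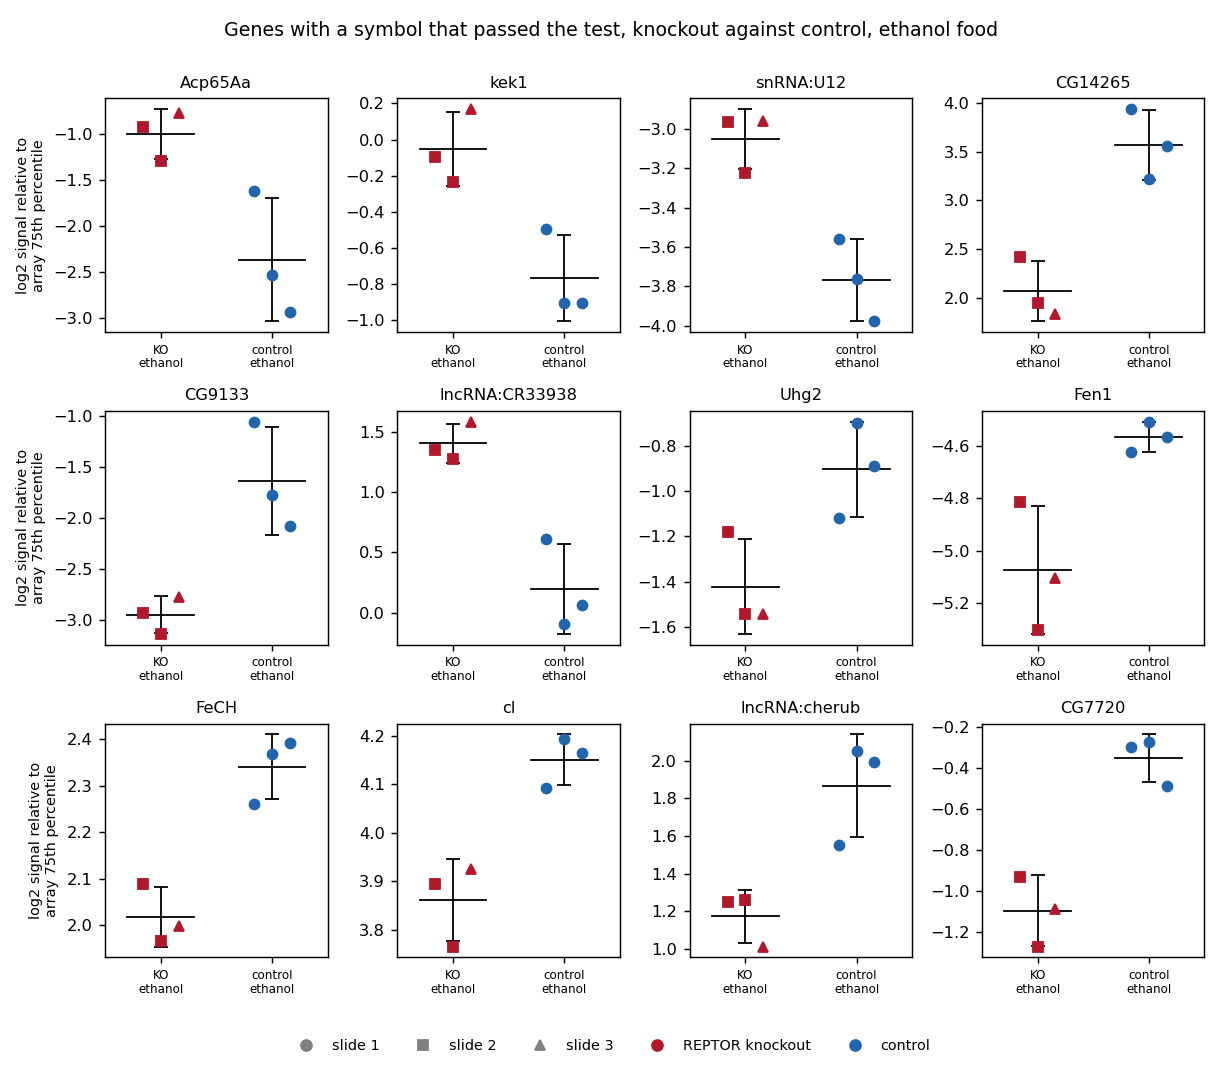
Levels (y axis, log2 signal relative to the array's 75th percentile) of 12 genes with a symbol that passed, on the 3 knockout arrays (left, red) and the 3 control arrays (right, blue) on ethanol food. Lines and bars are means and SDs and marker shapes are slides. In each panel the 2 genotypes do not overlap, which the rule for naming genes that passed required. Every control array is from slide 1.

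Genes lower in knockout larvae include an enzyme of haem synthesis, a replication nuclease and noncoding RNAs. CG14265, a gene named here only by its number, was the largest well-measured change among them. Knockout larvae had 2.42, 1.95 and 1.84, against 3.94, 3.22 and 3.56 in control larvae, a difference of -1.50 ± 0.21 (SE, adjusted p = 0.00921) that makes control levels 2.83-fold higher. Its lowest control array lay 0.80 above its highest knockout array. The call held in 22 of 26 alternative settings.

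FeCH encodes ferrochelatase, which inserts iron into protoporphyrin in the last step of haem synthesis. It had 2.09, 1.97 and 2.00 in knockout larvae, against 2.26, 2.37 and 2.39 in control larvae. The difference was small, -0.32 ± 0.06 (SE, adjusted p = 0.0243), but larger than the SDs of 0.06 and 0.07 within the knockout and control groups. Similar in size was cl, an eye colour gene of the drosopterin pigment pathway, with 3.89, 3.76 and 3.92 in knockout larvae and 4.09, 4.19 and 4.16 in control larvae (difference -0.29 ± 0.07, adjusted p = 0.0391). FeCH and cl were the only members of their lists, haem and iron and eye pigment, that could be matched to a target.

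Fen1, the flap endonuclease that trims Okazaki fragments during DNA replication, was dim, at -4.81, -5.30 and -5.10 in knockout larvae and -4.62, -4.51 and -4.57 in control larvae. The difference was -0.51 ± 0.12 (SE, adjusted p = 0.0414). Gen, a DNA endonuclease gene and the other member of the replication and repair list, had 0.35 ± 0.16 and did not pass.

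Uhg2, a noncoding gene whose introns carry small nucleolar RNAs that guide ribosomal RNA modification, stood at -1.18, -1.54 and -1.54 in knockout larvae, against -1.12, -0.70 and -0.89 in control larvae. Knockout array 1 came within 0.06 of control array 1. The difference was -0.52 ± 0.12 (SE, adjusted p = 0.0416). The other host genes of this kind, Uhg5 (-0.49 ± 0.13, adjusted p = 0.0529) and Uhg3 (-0.43 ± 0.15, adjusted p = 0.105), had values near it but did not pass, so 1 of the 3 fell. At an unadjusted p of 0.05 the count was 3 of 3, all lower in knockout larvae, beside 4978 of the 18765 tested in either direction. None of 4 snoRNAs passed, with differences from -0.43 for snoRNA:Psi28S-291 to 0.06 for snoRNA:U3:9B.

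lncRNA:cherub, a long noncoding RNA known from larval neural stem cells, had 1.25, 1.26 and 1.01 in knockout larvae and 1.55, 2.05 and 1.99 in control larvae. The difference was -0.69 ± 0.14 (SE, adjusted p = 0.0286). Of 52 long noncoding RNAs tested 3 were higher and 3 lower, and of 35 antisense RNAs 1 was higher and 4 were lower, beside 2.91% higher and 3.49% lower among everything tested. Counts this small give no basis for setting either class apart from the rest.

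Among these RNAs, lncRNA:CR33938 showed the clearest rise. It had 1.35, 1.28 and 1.58 in knockout larvae, against 0.61, -0.10 and 0.07 in control larvae, a difference of 1.21 ± 0.19 (SE, adjusted p = 0.0146). lncRNA:CR44042 (0.53 ± 0.09) and lncRNA:CR42549 (0.28 ± 0.07) also rose, as did asRNA:CR43257 (1.06 ± 0.24), whose value was -0.50 with normexp before the percentile scaling.

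The antisense RNA asRNA:CR43470 fell most firmly among the noncoding RNAs. Its levels were -6.33, -6.71 and -6.62 in knockout larvae and -5.51, -5.11 and -5.17 in control larvae, a difference of -1.29 ± 0.16 (SE, adjusted p = 0.00451). These levels are near the limit of detection, and it was well above background on 2 of the 3 knockout arrays. asRNA:CR44029 was too dim on all 3 knockout arrays to be well above background and is given as at least 2.22-fold lower. That bound compares mean log2 levels, with each knockout array entered at the array's dimmest signal still well above background, or at the probe's signal where that is higher. asRNA:CR44035 (-0.92 ± 0.24), lncRNA:CR43334 (-0.53 ± 0.09), lncRNA:CR43943 (-0.31 ± 0.08) and asRNA:CR43767 (-0.29 ± 0.07) were the remaining noncoding RNAs that fell.

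The last 3 genes lower in knockout larvae carry only a number. CG9133 had -2.93, -3.14 and -2.77 in knockout larvae, against -1.06, -1.77 and -2.08 in control larvae (difference -1.31 ± 0.31, SE, adjusted p = 0.041). CG32260 was dim and well above background on 2 of the 3 knockout arrays, at -7.32, -7.01 and -6.36 in knockout larvae and -5.64, -5.15 and -5.37 in control larvae (-1.51 ± 0.26, adjusted p = 0.0193). CG7720 had -0.93, -1.27 and -1.09 in knockout larvae and -0.30, -0.28 and -0.49 in control larvae (-0.74 ± 0.16, adjusted p = 0.0334). With CG14265, these made 4 of 44 tested genes known by a CG number that fell, and 0 that rose, beside 3.49% lower and 2.91% higher among everything tested.

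None of the 23 named calls passed with slide as a block, and their calls held in 6 to 22 of the 26 alternatives. With the 6 ethanol arrays alone, asRNA:CR43470 was the single named gene below the threshold (adjusted p = 0.0312).

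The list members Nepl4, mio, Wdr59, Hsl, mxt, Atg10 and f-cup, which rapamycin raised in control larvae, did not pass between the genotypes on ethanol food. They do not stand for all genes that rapamycin raised, since several named above did pass on ethanol food. CG14265, lower in knockout larvae by the -1.50 given above, had a rapamycin effect of 0.97 ± 0.21 (log2, SE) in control larvae, and kek1, higher in knockout larvae, had 0.65 ± 0.14. Nepl4, which encodes a neprilysin-like peptidase, had -0.83, -0.36 and -0.65 in knockout larvae, against -0.85, -0.70 and -0.55 in control larvae. The groups overlap in part, with knockout array 2 above every control array, and the difference was 0.09 with a 95% interval from -0.19 to 0.36. Rapamycin raised the same gene by 3.16 ± 0.12 (SE) in control larvae, a comparison that shares the control ethanol arrays.

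The GATOR2 complex, an activator of TORC1, was represented by 3 subunits. mio had 0.60, 0.75 and 0.64 in knockout larvae and 0.65, 0.57 and 0.60 in control larvae, a difference of 0.06 with an interval from -0.08 to 0.19, against a rapamycin effect of 1.51 in control larvae. Wdr59 had -1.71, -1.57 and -1.53 in knockout larvae and -1.60, -1.98 and -1.93 in control larvae. Its difference of 0.23 (interval -0.01 to 0.47, adjusted p = 0.211) did not pass, and its rapamycin effect in control larvae was 1.71. Wdr24 differed by 0.03 (interval -0.21 to 0.28), and no other gene of the TORC1 list could be matched to a target.

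Hsl, encoding hormone-sensitive lipase, differed by 0.02 (interval -0.16 to 0.20) between knockout and control larvae on ethanol food. The eIF4E-binding translation factor gene mxt differed by 0.07 (interval -0.10 to 0.25), the autophagy gene Atg10 by -0.01 (interval -0.14 to 0.11) and f-cup by -0.10 (interval -0.25 to 0.06). Rapamycin effects in control larvae were 0.94 for Hsl, 0.81 for mxt, 0.50 for Atg10 and 1.58 for f-cup. For each of these 4 genes the interval of the knockout difference lies below its rapamycin effect.

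**Figure D3:**
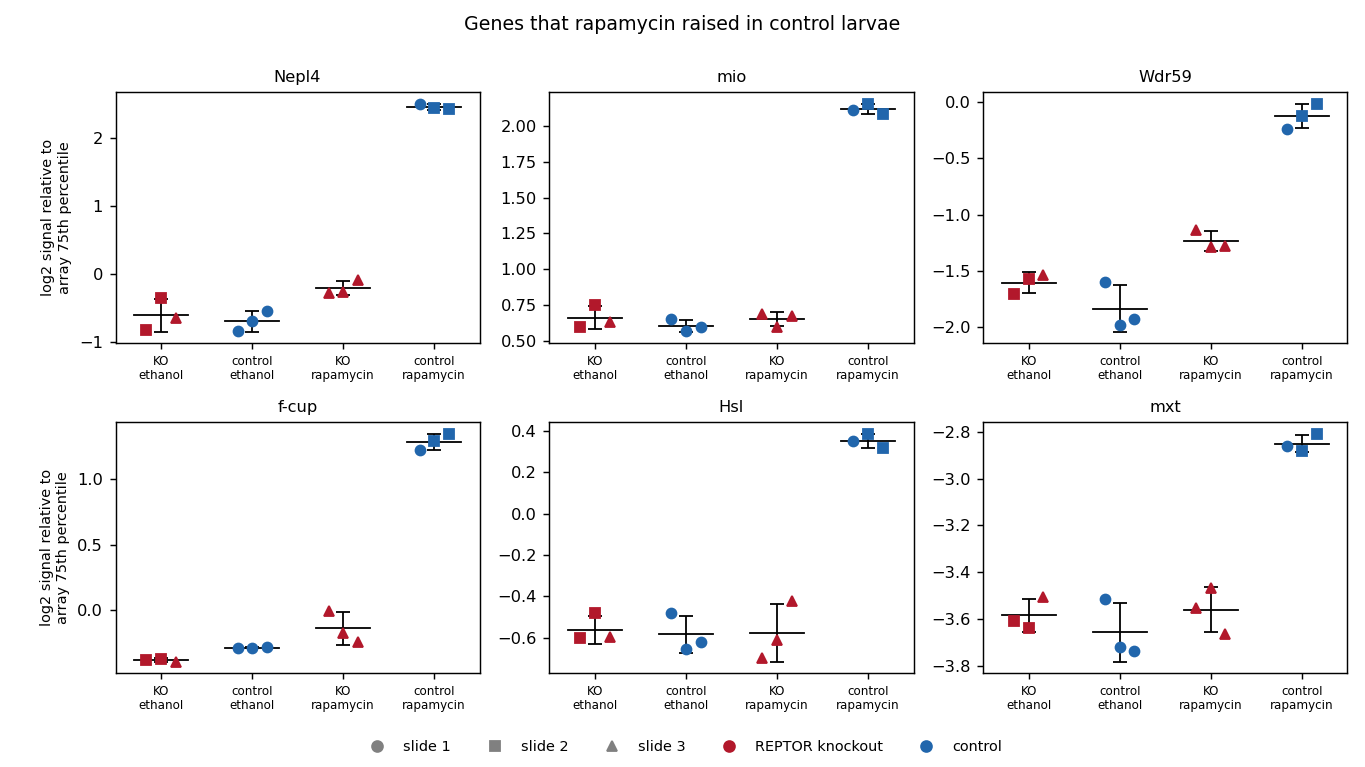
Levels (y axis, log2 signal relative to the array's 75th percentile) of 6 genes on all 12 arrays, with means and SDs; from left, knockout and control larvae on ethanol food, then knockout and control larvae on rapamycin food. For Nepl4, mio, Wdr59, Hsl and mxt the knockout and control ethanol arrays overlap, and for f-cup they differ by 0.10 on average with no overlap; the control rapamycin arrays stand above all others.

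Ribosomal protein lists gave no call in fed knockout larvae. None of 4 cytosolic ribosomal protein genes passed, with RpS14b at 0.00, RpL30 at -0.15, RpS29 at -0.22 and RpS7 at -0.30. None of 3 mitochondrial ribosomal protein genes passed either, and all 3 had values below 0: mRpL14 had -0.41 ± 0.16 (adjusted p = 0.13), mRpL52 -0.35 ± 0.14 (adjusted p = 0.147) and mRpS16 -0.33 ± 0.16 (adjusted p = 0.216). At an unadjusted p of 0.05, limma gave 1 of the 4, RpS7, and 2 of the 3, mRpL14 and mRpL52, all below 0. Counts this small, beside 4978 of the 18765 tested, give no basis for setting these lists apart. Knockout array 1 lay among the control arrays for mRpS16 and mRpL52. The tryptophanyl-tRNA synthetase gene TrpRS had -0.36 ± 0.11 (adjusted p = 0.0705), with 0.30, -0.03 and 0.09 in knockout larvae against 0.40, 0.63 and 0.44 in control larvae.

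No matched gene of the metabolic, lysosomal and stress lists passed, beside 6.39% of everything tested. These lists had few matched members. The aldolase gene Ald1 had -0.10 ± 0.12, ATPCL, encoding ATP citrate lyase, -0.17 ± 0.18, and aralar1, which encodes a mitochondrial aspartate-glutamate carrier, -0.16 ± 0.14. The cathepsin gene CtsB had 0.06 ± 0.14 and the vacuolar ATPase subunit gene Vha13 -0.23 ± 0.09, and Vha13 was under an unadjusted p of 0.05 by limma. The stress list had puc, a JNK phosphatase gene, at -0.24 ± 0.12, cnc, encoding the fly Nrf2 homologue, at -0.18 ± 0.08, and Hsc70-1 at -0.13 ± 0.15. Of 6 histone genes, 3 complex I subunit genes and 5 ion channel genes, which were grouped after the symbols on the array had been seen, 0 passed limma's test, and 1, the complex I gene ND-B17 (-0.18 ± 0.07), was under an unadjusted p of 0.05. Over everything tested, 4978 of 18765 were under that p.

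Much larger differences were found among targets without a symbol, which are given by their identifiers. TC250150 had -7.98, -8.36 and -8.59 on the knockout arrays, where it was not well above background, against 0.04, 0.46 and 0.21 on the control arrays. On ethanol food it was thus well above background in control larvae alone, and it was at least 169-fold lower in knockout larvae (adjusted p = 3.08e-07). FBtr0084674 behaved likewise, with -9.52, -9.01 and -9.50 in knockout larvae and -1.15, -1.38 and -1.27 in control larvae, at least 59.7-fold lower (adjusted p = 1.43e-08). These adjusted p-values belong to limma's differences, which use knockout signals not well above background. They do not test the bounds. TC250150 and FBtr0084674 passed in all 25 alternatives that gave a value, slide as a block included.

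U84756 was the largest rise. It had 8.03, 7.90 and 8.12 in knockout larvae, among the brightest levels on the array, against 1.17, 0.32 and 0.57 in control larvae, a difference of 7.33 ± 0.86 (SE, adjusted p = 0.00403). The level of this target was not constant within control larvae, since the control rapamycin arrays had 3.28, 7.26 and 3.40. It did not pass with slide as a block (5.23, adjusted p = 0.543). FBtr0070490 had -2.22, -0.92 and -2.13 in knockout larvae and -8.56, -6.58 and -6.98 in control larvae, where it was not well above background, and was at least 33.3-fold higher. A second probe of FBtr0070490 gave 2.85 (log2), below the 5.06 to which this bound corresponds, so the size of the rise is uncertain. With slide as a block FBtr0070490 did not pass (6.11, limma adjusted p = 0.157).

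**Figure D4:**
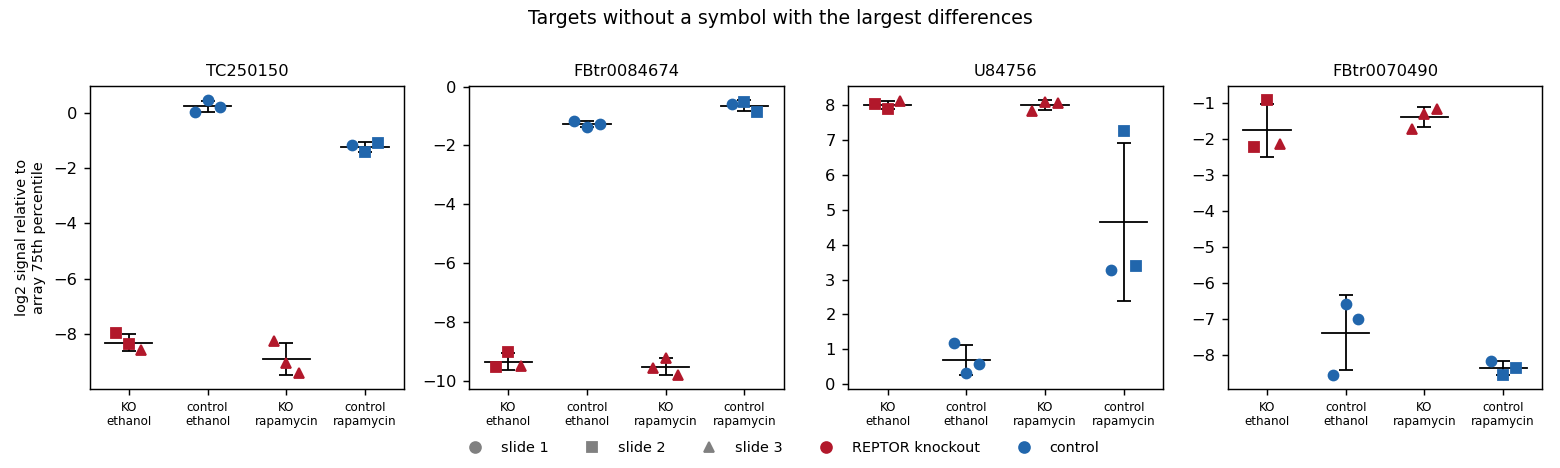
Levels (y axis, log2 signal relative to the array's 75th percentile) of the 4 targets without a symbol that differed most, with means and SDs; from left, knockout and control larvae on ethanol food, then knockout and control larvae on rapamycin food, with marker shape for the slide. For TC250150, FBtr0084674 and FBtr0070490 the genotypes stay far apart on both foods, whereas for U84756 control rapamycin array 2, at 7.26, lies near the knockout arrays.

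Further targets with wide gaps were chosen after their values were seen. FBtr0076968 had -5.46, -5.24 and -5.50 in knockout larvae and -0.87, -0.97 and -0.90 in control larvae, a difference of -4.49 ± 0.10 (SE, adjusted p = 1.43e-08). It was the single target of the 1200 that passed in all 26 alternatives. FBtr0084675, whose number follows that of FBtr0084674, had -5.59, -4.92 and -7.35 in knockout larvae, against -1.83, -1.54 and -1.74 in control larvae (-4.25 ± 0.49, SE), and was well above background on 2 of the 3 knockout arrays. FBtr0077220 had -3.94 ± 0.57, and FBtr0077218 had -2.44 ± 0.32 on one probe and -2.49 on a second. Among those that rose, FBtr0071928 had 4.43 ± 0.44, a size that is uncertain because 1 of the 3 control arrays was well above background. FBtr0342899 had 4.03 ± 0.32 and TC240241 had 3.15 ± 0.17. TC250150, FBtr0084674, FBtr0076968, FBtr0342899 and TC240241 were the 5 of the 1200 that also passed with slide as a block.

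Where a target had more than 1 probe, its other probes mostly gave the same sign. All other probes did so for 249 of 272 called targets (91.5%), against 2849 of 3801 among all those tested with several probes. Calls were spread over the range of brightness, with 3.73% of the dimmest 4692 and 6.63% of the brightest 4691 called.

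The genotype difference was then set against the one on rapamycin food, which uses 6 other arrays and shares none with the ethanol comparison, although both come from 1 model. On that food too no slide held both genotypes. Of the 1200 calls, 929 (77.4%) had the same direction on rapamycin food, against 11093 (59.1%) of everything tested. In 489 the rapamycin-food difference passed in the same direction and in 82 in the opposite one, where 5226 (27.8%) passed in all. Agreement grew with the size of the difference, to 218 of the 251 that differed by 2-fold or more and all 14 that differed by 16-fold or more, each of which also passed on rapamycin food. With each food fitted alone, 141 of 158 calls on ethanol food had the same direction on rapamycin food and 70 of them passed there too.

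Among the 23 named genes 15 had the same direction on rapamycin food, beside 11093 (59.1%) of everything tested. Of these 15 genes 8 passed there, where 5226 (27.8%) of everything tested passed in either direction. A further 2 named genes passed there in the opposite direction, asRNA:CR43767 at 0.67 ± 0.07 (adjusted p = 0.000143) and lncRNA:CR42549 at -0.23 ± 0.07 (adjusted p = 0.0395). Acp65Aa had 1.71 ± 0.32 on rapamycin food, CG14265 -1.79 ± 0.21, CG9133 -2.41 ± 0.31, lncRNA:cherub -0.65 ± 0.14 and Fen1 -0.51 ± 0.12 (log2, SE, knockout minus control). The cuticle gene, the replication nuclease and the neural RNA are therefore among the 8 that passed in the same direction on both sets of arrays. Counts this small give no basis for setting the named genes apart from everything tested. The genotype difference did not pass on rapamycin food for FeCH (-0.02 ± 0.06), Uhg2 (-0.28 ± 0.12), kek1 (-0.11 ± 0.14) and snRNA:U12 (0.32 ± 0.11, adjusted p = 0.0532). For FeCH and kek1 the difference between the foods itself passed, as did that of 372 of the 1200 calls and 2743 (14.6%) of everything tested. That test contains the ethanol difference by which these genes were chosen.

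**Figure D5:**
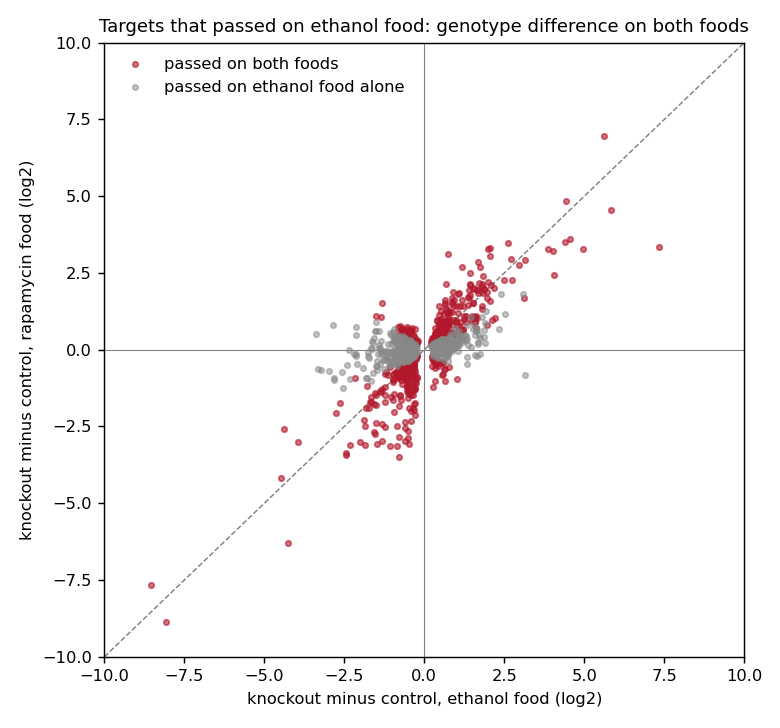
Genotype difference (knockout minus control, log2) on ethanol food (x axis) and on rapamycin food (y axis) for the 1200 targets that passed on ethanol food; red points passed on both foods, grey points on ethanol food alone, and the dashed line marks equal differences. Of these points 929 share their sign, and all 14 beyond 16-fold lie on the same side of 0 on both axes.

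Dosage compensation RNAs were looked at as a check on the sex of the samples. The testis gene f-cup is the only other male marker that could be matched to a target. lncRNA:roX1 had -1.39, -1.57 and -1.46 in knockout larvae and -0.17, -0.80 and -0.13 in control larvae on ethanol food. The groups did not overlap and its 3 other probes gave -0.87 to -1.27, but the difference of -1.11 ± 1.08 (SE) did not pass (adjusted p = 0.567). Its standard error includes the rapamycin arrays, where the level of lncRNA:roX1 ranged up to 3.88. With the ethanol arrays fitted alone limma gave an adjusted p of 0.0691, and with slide as a block 0.757, so it passed in neither. The 3 arrays with raised lncRNA:roX2 also had the highest lncRNA:roX1 levels, 2.91 to 3.88. Leaving them out narrows the error by how they were chosen and leaves a single knockout rapamycin array, so no p is given for that fit. The median level of 67 targets named after adult testis cDNA clones was -5.17 to -4.92 on the knockout ethanol arrays and -4.89 to -4.84 on the control ethanol arrays. Of these 67 targets, 1 was higher and 1 lower, beside 2.91% higher and 3.49% lower among everything tested. Counts this small give no basis for setting these targets apart from the rest. The part of male tissue in the other results was not tested on ethanol food beyond these values.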

How the data were processed

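Intensity per spot comes from the deposited scanner files, which Agilent Feature Extraction wrote (version 10.7 in the submitters' processing notes, 10.7.3.1 per the file headers). Its processed signal is background-corrected. The authors' deposited value table, also of intensity values, served as an alternative; its column medians ran from 144 to 157 and the step that made it is not given in the sources used here. It is on a linear scale, uncentred and without a ratio direction.

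For this comparison the log2 processed signal was taken relative to the 75th percentile of each array, control spots and outlier spots were left out, and spots of a probe were averaged. Of the 32162 probes, 494 matched 1 gene in the RefSeq table by accession or clone name, 3 matched several and 31665 none. A gene, or a target without a symbol, entered through its brightest probe (mean over 12 arrays). Testing required that probe to be well above background throughout at least 1 group of 3 arrays. The tests used limma 3.58.1 (R 4.3.3), with 1 model of 4 groups with 8 residual degrees of freedom. p-values were two-sided and adjusted by Benjamini-Hochberg over 18765 tests, with a threshold of 0.05. The series describes its arrays as biological replicates. No exact test is given, since with 3 arrays a group its smallest p is 0.1. The fit was tested on simulated data with independent noise and no slide effect, so that test does not cover the slide layout of these arrays.

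Named genes are those with a symbol that passed without overlap between genotypes (up to 15 each way), the 2 highest and 2 lowest targets without a symbol, and members of gene lists; others were chosen after their values were seen. Of the named genes that passed, 1 is not reported here. The gene lists and the comparison itself were chosen with earlier results of these data known. Lists of insulin signalling, immune peptides, detoxification, ecdysone, transposable elements, female germline, fat body, midgut, muscle and nervous system had no member that could be matched. The alternatives were 26 other scalings, background corrections, filters, models and sets of arrays. The normexp background correction (offset 50) used the median spot signal, as the mean was not among the columns used. Replicate numbers did not pair the samples.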

Additional observations from a re-analysis of the deposited data

Results flagged for a closer look

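For 9 of the 23 named genes the genotype difference on rapamycin food differed from that on ethanol food by limma's test of the difference itself (knockout minus control, log2, rapamycin food minus ethanol food). The same test passed for 372 of the 1200 calls and for 2743 (14.6%) of everything tested. Genes were named for passing on ethanol food, and this test contains that same ethanol difference, so the count of 9 is not independent of the choice. CG32260 had 0.61 on rapamycin food and -1.51 on ethanol food, a difference of 2.11 (adjusted p = 0.00486). asRNA:CR44029 had 0.06 on rapamycin food, and on ethanol food only a bound of at least 2.22-fold lower in knockout larvae. The model's difference between the foods, 1.72 (adjusted p = 0.0375), uses knockout ethanol signals that were not well above background on any of the 3 arrays, so it is not a measured size. asRNA:CR43767, with 0.67 and -0.29, differed by 0.96 (adjusted p = 0.000401), and asRNA:CR43470, with -0.33 and -1.29, by 0.96 (adjusted p = 0.0186). The eye pigment gene cl had 0.06 and -0.29, a difference of 0.35 (adjusted p = 0.0348), and FeCH had -0.02 and -0.32, a difference of 0.31 (adjusted p = 0.0454). kek1 went the other way, with -0.11 on rapamycin food and 0.71 on ethanol food, a difference of -0.83 (adjusted p = 0.0252). lncRNA:CR42549 had -0.23 and 0.28, a difference of -0.51 (adjusted p = 0.00918), and lncRNA:CR43334 had -1.22 and -0.53, a difference of -0.69 (adjusted p = 0.00525). All 3 knockout rapamycin arrays lay on slide 3, so these differences also compare slides.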

How the results depend on the processing

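Most calls in fed larvae depended on the setting, while the sign was kept in every alternative for 21 of the 23 named genes. Several alternatives leave the difference itself unchanged, among them the 6 ethanol arrays alone, the stricter threshold and the replicate block. In those the sign could not turn, so its keeping there is no check. The percentage of tested targets that passed, and after the slash the percentage that also differed by 2-fold or more, was 6.39 / 1.34 as reported. It was 0.634 / 0.613 under median centring, 1.57 / 0.661 under quantile normalisation, 3.41 / 0.57 under normexp with quantile normalisation, 0.229 / 0.176 under normexp with the 75th percentile and 2.03 / 0.602 from the value table. It was 0.842 / 0.576 with 6 arrays only, 2.4 / 0.89 without the 3 raised lncRNA:roX2 arrays, 0.0533 / 0.0533 with slide as a fixed block, 21.9 / 2.47 with slide as a random block, 22.6 / 2.84 with array weights and 0.512 / 0.304 at an adjusted p of 0.01. The fit with slide as a random block estimated a negative correlation, -0.16, between arrays of a slide. A negative value makes differences between slides look more precise, so that larger count is not one corrected for slide. Without a filter 2.14% of 25842 passed. Leaving out 1 array gave 0.57 to 13.7, and 0.346 to 2.42 of 2-fold or more; the lowest values were without control array 3 and the highest without control array 1. The cause was not tested. Of the 1200 calls, 418 held in at least 13 of 26 alternatives, 89 in at least 20 and 23 in at least 24. Among the named genes the sign turned for asRNA:CR43257 (-0.50) and snRNA:U12 (-0.20), both under normexp with the 75th percentile, and 9 of the 23 calls held in at least 13 alternatives.

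On rapamycin food the count of 5226 was 1666 under median centring, 1670 under normexp with the 75th percentile, 2420 without the raised lncRNA:roX2 arrays, 788 with slide as a fixed block and 3006 at an adjusted p of 0.01. For the difference between foods, 2743 became 329, 560, 980, 617 and 1160 in the same order, 4992 with slide as a random block and 4346 with array weights. Leaving out 1 ethanol array gave 4761 to 5534 on rapamycin food and 1858 to 2966 for the difference between foods. The 929 calls with the same direction on rapamycin food became 141 of 158 with each food fitted alone.

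Same-numbered knockout and control arrays deviated from their group means with correlations of -0.12, -0.13 and -0.19, so the numbers do not pair the samples. With replicate number as a block 279 passed (1.49%, and 0.714% of 2-fold or more), and with the block on 6 arrays 7 passed (0.0373%, all 7 of 2-fold or more). What signal over background limits is the dim targets, such as asRNA:CR44029, for which only a bound could be given.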
